A study of Drosophila melanogaster with 24 samples.

Results

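The genes described here encode the secreted recognition proteins of Drosophila immunity, the short peptidoglycan recognition proteins (PGRP-S) and the Gram-negative binding proteins (GNBP). They were taken by symbol, 6 PGRP-S genes (PGRP-SA, PGRP-SB1, PGRP-SC1a, PGRP-SC1b, PGRP-SC2 and PGRP-SD) and 4 GNBP genes (GNBP1, GNBP2, GNBP3 and GNBP-like3). All 10 had a row among the 13234 genes of the authors' deposited table, and all 10 had an adjusted p-value. The rule reads symbols and no values, but the genes were proposed with earlier results of these data known.

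The study measured poly-A RNA in dissected fat body, the insect tissue that combines the roles of liver and adipose tissue and secretes most humoral immune proteins. The flies were virgin w1118 females of Drosophila melanogaster, 25 days old, in 4 groups of 6 libraries: 11 °C with ethanol, 11 °C with S-methoprene, 25 °C with ethanol and 25 °C with S-methoprene. S-methoprene is an analogue of juvenile hormone, and ethanol, the vehicle, was given to all 4 groups, in 10 µL evaporated every 2 days. Each library pooled tissue from 25 flies. Only flies with the ovary state typical of their condition went in, small regressed ovaries for 11 °C with ethanol and large ones for the other 3 groups, so ovary state and condition cannot be told apart.

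The authors' deposited table holds 1 comparison and gives neither the factor nor the direction. The sources used here do not say which of these libraries entered it. Each gene has a mean of normalised read counts over the libraries of that fit, a log2 fold change with its standard error (SE), and a Benjamini-Hochberg adjusted p-value. Genes are therefore given by the sign of the fold change, as higher on the positive or the negative side, without saying which temperature or treatment a side stands for. The means of all genes sum to 4719004, and values and depth per library were not analysed here, so no gene can be shown group by group. Markers of several tissues were abundant in the libraries labelled fat body. The highest means were 53598 for Yp2 among fat body markers, 123338 for Cyp4g1 among oenocyte markers and 18683 for alphaTry among midgut markers.

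Flies sense bacteria and fungi through proteins that bind cell-wall polymers. In the hemolymph, PGRP-SA and GNBP1 act together on the peptidoglycan of many Gram-positive bacteria, PGRP-SD assists recognition, and GNBP3 binds fungal beta-glucans. These sensors start a serine protease cascade, from ModSP and Grass to the Spätzle-processing enzyme, that activates the receptor Toll. Other short PGRPs are amidases that cut peptidoglycan into fragments with little immune activity, and PGRP-SC1a, PGRP-SC1b and PGRP-SC2 are best known from the gut, where they dampen the Imd pathway. PGRP-SB1 is a secreted amidase induced by infection. GNBP2 and GNBP-like3 belong to the family by sequence and are less well studied.

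Of the 10 genes, 5 were higher on the negative side, 1 was higher on the positive side and 4 did not pass an adjusted p of 0.05 in the authors' deposited table. The amidase genes PGRP-SC1a, PGRP-SC1b and PGRP-SB1, the fungal sensor gene GNBP3 and GNBP-like3 made up the first group, and GNBP1 was the single gene of the second. Of the 11399 genes with an adjusted p-value, 49.0% were called, 22.0% with a negative and 27.0% with a positive sign. The 6 called genes are 60.0% of 10, not far from the share of the table. Their calls were divided 5 to 1 toward the negative side, and no test of that division was run. The median log2 fold change of the 10 genes was -0.52, against 0.07 over all genes with an adjusted p-value. With the near-identical copies PGRP-SC1a and PGRP-SC1b counted as 1 gene, 4 were called on the negative side. The tissue is a bulk sample, in which fewer cells of a type and less RNA per cell cannot be told apart.

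**Figure D1:**
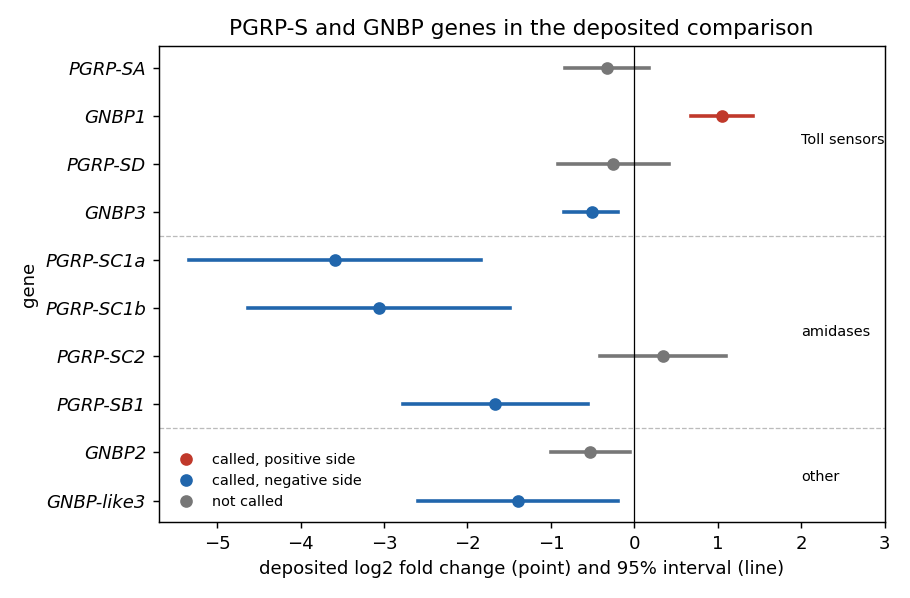
Deposited log2 fold change (points) of the 10 genes with 95% intervals computed from the deposited standard errors (lines), ordered by role and coloured by call. PGRP-SC1a and PGRP-SC1b lie farthest to the negative side, at -3.59 and -3.06, and GNBP1 is the gene called on the positive side, at 1.05.

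The sensors of the Toll pathway did not share a direction. GNBP1, the partner of PGRP-SA, had a mean of 218 normalised counts and was 2.07-fold higher on the positive side, with a log2 fold change of 1.05 (SE 0.19, 95% interval 0.68 to 1.42). Its adjusted p in the authors' DESeq2 table was 2.66e-07. PGRP-SA itself had a mean of 276 and a log2 value of -0.33 (SE 0.26, 95% interval -0.83 to 0.17, adjusted p = 0.287 in the deposited table). Its interval leaves room for a difference of either sign. GNBP3, with a mean of 664, was 1.43-fold higher on the negative side, at a log2 fold change of -0.51 (SE 0.17, 95% interval -0.84 to -0.19, adjusted p = 0.00533 in the deposited table). PGRP-SD, the accessory sensor, had a mean of 438 and a log2 fold change of -0.25 (SE 0.34, 95% interval -0.91 to 0.41, adjusted p = 0.556 in the deposited table).

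The distance between GNBP1 and the other sensors was set against the largest error it can have. The SE of a difference between genes of the same libraries depends on how they vary together, which the deposited table does not give, but it cannot exceed the sum of both SEs. The 7 pairs described were picked after the values were seen, so 95% intervals were computed with that sum and widened for all 45 pairs that 10 genes can form. GNBP1 minus GNBP3 was 1.56 on the log2 scale, with an interval from 0.40 to 2.72, which lies above 0. GNBP1 minus PGRP-SA was 1.38, with an interval from -0.07 to 2.83, which includes 0, so a difference between these partner genes was not shown. The difference of PGRP-SD minus PGRP-SA, 0.08, had an interval from -1.85 to 2.0, which is too wide to tell whether these sensor genes moved alike.

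Among the amidase genes, the widest contrast lay within the PGRP-SC cluster. PGRP-SC1a had a mean of 297 and was 12.0-fold higher on the negative side, with a log2 fold change of -3.59 (SE 0.89, 95% interval -5.34 to -1.84, adjusted p = 0.000242 in the deposited table). PGRP-SC1b had a mean of 129 and was 8.33-fold higher on the same side, at -3.06 (SE 0.80, 95% interval -4.63 to -1.49, adjusted p = 0.000518 in the deposited table). PGRP-SC1a and PGRP-SC1b encode nearly the same protein. The sources used here do not say how reads that match both copies were counted, so the division of reads between them is uncertain and their values are not independent.

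PGRP-SC2, the third gene of the cluster, had a mean of 1028, above both copies, and a log2 fold change of 0.34 (SE 0.39, 95% interval -0.41 to 1.10, adjusted p = 0.474 in the deposited table). With the largest possible SE and widened for 45 pairs, PGRP-SC1a minus PGRP-SC2 was -3.93 on the log2 scale with a 95% interval from -8.10 to 0.24. PGRP-SC1b minus PGRP-SC2 was -3.40 with an interval from -7.27 to 0.47. Both intervals include 0, so a difference in fold change between the PGRP-SC1 copies and PGRP-SC2 was not shown at this error. The difference between both copies, PGRP-SC1a minus PGRP-SC1b, was -0.53 with an interval from -6.06 to 5.0.

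Markers of the midgut, the tissue in which the PGRP-SC genes are best known, were called more often on the negative than on the positive side. Of 21 midgut markers, 11 had a negative call and 3 a positive call in the authors' deposited table, beside 22.0% and 27.0% of all genes. Their median log2 fold change was -0.80, against 0.07 over all genes. They ranged from -6.29 for the lysozyme gene LysB to 1.90 for the maltase gene Mal-A1, and deltaTry, a trypsin gene, stood at -2.77 (SE 0.22). None of the 21 was at 0. By sign alone 12 of the 21 lay on the negative side, with the PGRP-SC1 copies, and 9 on the positive side, with PGRP-SC2. Relative to the median of genes of like transcript length, 11 were negative and 10 positive, with a median of -0.51. The part of gut RNA in the fold changes of the PGRP-SC genes was not tested.

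PGRP-SB1, the infection-induced amidase, had a mean of 706 and was 3.18-fold higher on the negative side, at a log2 fold change of -1.67 (SE 0.56, 95% interval -2.77 to -0.56, adjusted p = 0.00839 in the deposited table). PGRP-SB2, its neighbour and a predicted amidase gene, had a mean of only 1.27 and a log2 value of -2.02 (SE 0.96, adjusted p = 0.067), which did not pass. Of the 4 amidase genes among the 10, 3 were called, all on the negative side, beside 22.0% of all genes. PGRP-SC1a and PGRP-SC1b are near-identical copies, so these 3 calls are not independent. PGRP-LB, a further amidase gene outside the 10, stood on the other side, at 0.77 (SE 0.19, adjusted p = 0.000288 in the deposited table).

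Of the less studied members, GNBP-like3 was called and GNBP2 was not. GNBP-like3 had the highest mean of the 10, 2393, and was 2.62-fold higher on the negative side, with a log2 fold change of -1.39 (SE 0.61, 95% interval -2.59 to -0.19). Its adjusted p of 0.0478 in the authors' DESeq2 table lay just under the threshold and rose to 0.0553 when the adjustment covered all 13194 genes with a p-value. GNBP2 had a mean of 173 and a log2 fold change of -0.53 (SE 0.24, 95% interval -1.0 to -0.05). Its unadjusted p was 0.0299 and its adjusted p 0.0591 in the deposited table, so it fell just short of the threshold.

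**Figure D2:**
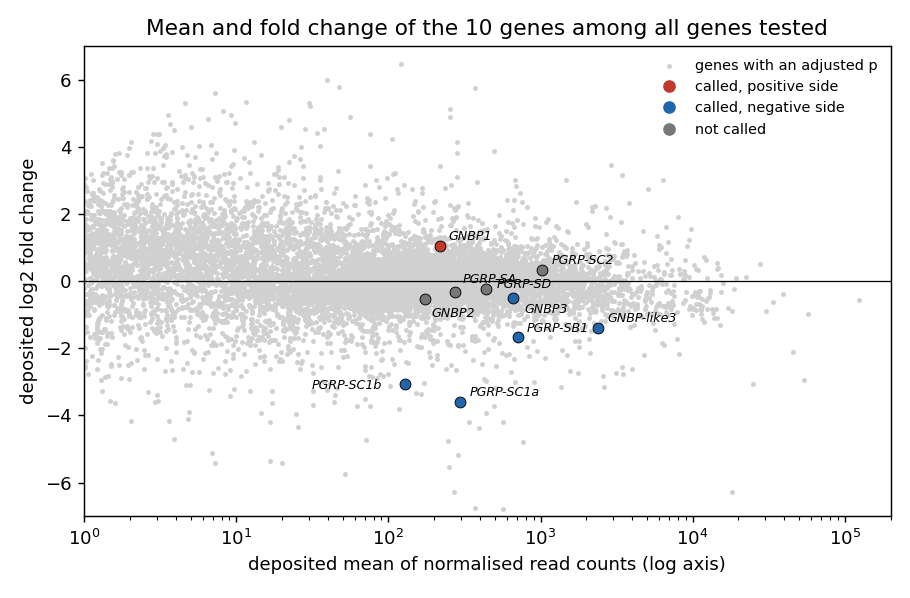
Deposited log2 fold change against the mean of normalised read counts (log axis from 1) for genes with an adjusted p-value (grey), with the 10 genes marked and coloured by call. The means of the 10 genes run from 129 to 2393, and PGRP-SC1a and PGRP-SC1b sit below nearly all genes of like mean.

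Levels can be compared between genes only per length. Divided by the length of the longest annotated transcript, the mean was 4647 normalised counts per kb for GNBP-like3, 1377 for PGRP-SC2 and 1133 for PGRP-SB1. PGRP-SD followed at 608 per kb, PGRP-SC1a at 505, GNBP3 at 434 and PGRP-SA at 271. GNBP1 at 122 per kb, GNBP2 at 115 and PGRP-SC1b at 78.3 were lowest. This order is that of means pooled over the libraries of the authors' fit, and genes with large fold changes, such as PGRP-SC1a, need not hold their place within a group. The level of PGRP-SC1b depends on the transcript, since its shortest annotated form gives 206 per kb. The table gives no spread of these levels over libraries, so neighbours in this order cannot be told apart by their error.

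All 10 genes had larger standard errors than is usual for their mean. Each SE was set beside those of the genes whose mean lay within 2-fold, for which the median SE was between 0.12 and 0.14 on the log2 scale. The SE of PGRP-SC1a, 0.89, exceeded that of 99.4% of such genes, PGRP-SC1b at 0.80 exceeded 99.3%, PGRP-SB1 at 0.56 exceeded 98.3% and GNBP-like3 at 0.61 exceeded 97.8%. PGRP-SC2 and PGRP-SD, at 0.39 and 0.34, exceeded 96.6% and 96.5%. PGRP-SA at 0.26 and GNBP2 at 0.24 exceeded 93.3% and 91.4%, and the lowest were GNBP1 at 83.7% and GNBP3 at 74.7%. In 8 of the 10 genes the SE was above that of 90% of genes of like mean. The genes with the largest fold changes were therefore also those with the widest error, and GNBP1, with a moderate fold change, had the smallest adjusted p of the 10.

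The antimicrobial effector genes, the targets of the Toll and Imd pathways, had wide errors too. The SEs of the 27 measured effector genes ran from 0.25 to 1.51 with a median of 0.68. Their log2 fold changes had a median of -0.76, with 21 negative and 6 positive values. Calls in the deposited table were negative for 3 and positive for 1, beside 22.0% and 27.0% of all genes. Relative to genes of like transcript length 0 were negative and 3 positive, beside 18.1% and 26.9% of all genes. The effector genes were thus called less often than all genes. DptB, a diptericin gene, stood at -1.73 (SE 0.68, adjusted p = 0.0241) and CecC, a cecropin gene, at -2.15 (SE 0.92, adjusted p = 0.0408). The gene listed as CG15067, now BomBc2, a bomanin gene named after its value was seen, stood at -0.59 (SE 0.26, adjusted p = 0.0499). The gene listed as IM4, now Dso1, was the positive one at 0.86 (SE 0.38, adjusted p = 0.0462).

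**Figure D3:**
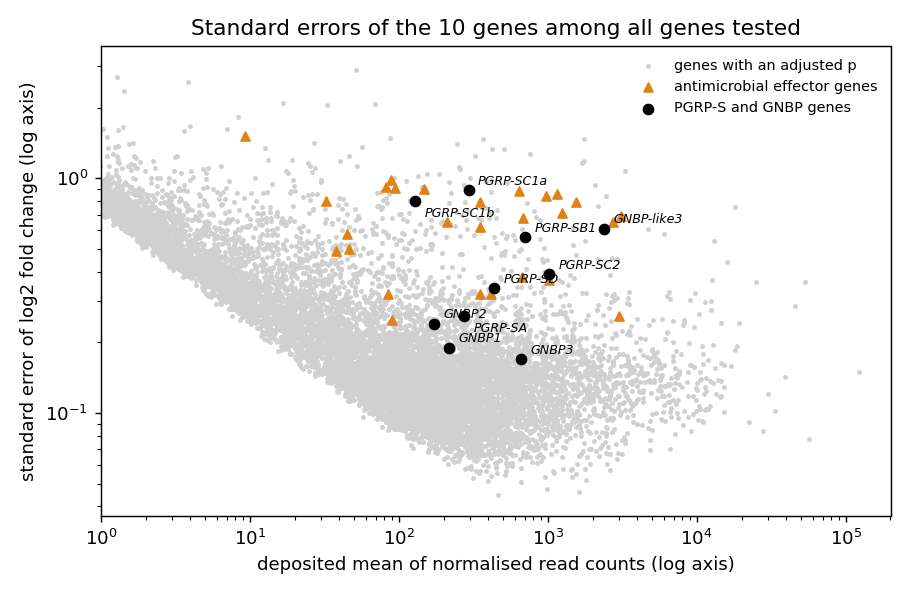
Standard error of the deposited log2 fold change against the mean of normalised read counts (both axes log) for genes with an adjusted p-value (grey), 27 antimicrobial effector genes (triangles) and the 10 PGRP-S and GNBP genes (black). PGRP-SC1a, PGRP-SC1b, PGRP-SB1 and GNBP-like3 lie among the effector genes, while GNBP1 and GNBP3 lie closer to the bulk of genes.

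The 10 genes are short and mostly lie in small groups. In the Ensembl release 115 annotation (dm6 coordinates, the build named in the submitters' processing notes), 5 lie on chromosome arm 3L, 4 on 2R and 1 on X, and all are protein-coding. The PGRP-S genes encode 184 to 203 residues, GNBP1 492, GNBP2 461, GNBP3 490 and GNBP-like3 152. In 6 of the 10 the longest transcript has a single exon. PGRP-SA has 2 introns, PGRP-SB1 has 1, GNBP1 has 3 and GNBP2 has 4.

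The PGRP-SC genes lie within 7963 bases on 2R and share a strand. PGRP-SC1a (FBgn0043576) spans 8709733 to 8710320, PGRP-SC1b (FBgn0033327) spans 8713446 to 8715094 and PGRP-SC2 (FBgn0043575) spans 8716950 to 8717695. PGRP-SC2 starts 1855 bases beyond PGRP-SC1b. CG14743, which lies on the opposite strand between PGRP-SC1a and PGRP-SC1b, had a mean of 4.19 and a log2 value of 1.0 (SE 1.01, adjusted p = 0.425 in the deposited table). On the far side of PGRP-SC2, CG14767 was called on the positive side at 0.65 (SE 0.10). CG14744, on the other side of PGRP-SC1a, had a mean of 0.251 and no adjusted p-value. With such low means, CG14743 and CG14744 cannot show whether the genes beside the PGRP-SC1 copies changed with them.

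GNBP2 (FBgn0040322, 3L, 18673474 to 18675413, minus strand) and GNBP1 (FBgn0040323, 3L, 18675800 to 18677876, plus strand) stand head to head with 386 bases between them. Their fold changes had opposite signs, 1.05 for GNBP1 and -0.53 for GNBP2, which was not called. The difference of GNBP1 minus GNBP2 was 1.58 on the log2 scale. Its 95% interval, with the largest possible SE and widened for 45 pairs, ran from 0.17 to 2.99. Relative to genes of like transcript length the interval ran from 0.07 to 2.89. Capr, the neighbour of GNBP2 on the other side, stood at -0.04 (SE 0.14). PGRP-SB1 (FBgn0043578, 3L, 16727299 to 16727989, minus strand) and PGRP-SB2 are convergent with 10 bases between them, and both had negative values. The next gene beyond PGRP-SB1, Dbp73D, was called on the negative side at -0.55 (SE 0.14).

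**Figure D4:**
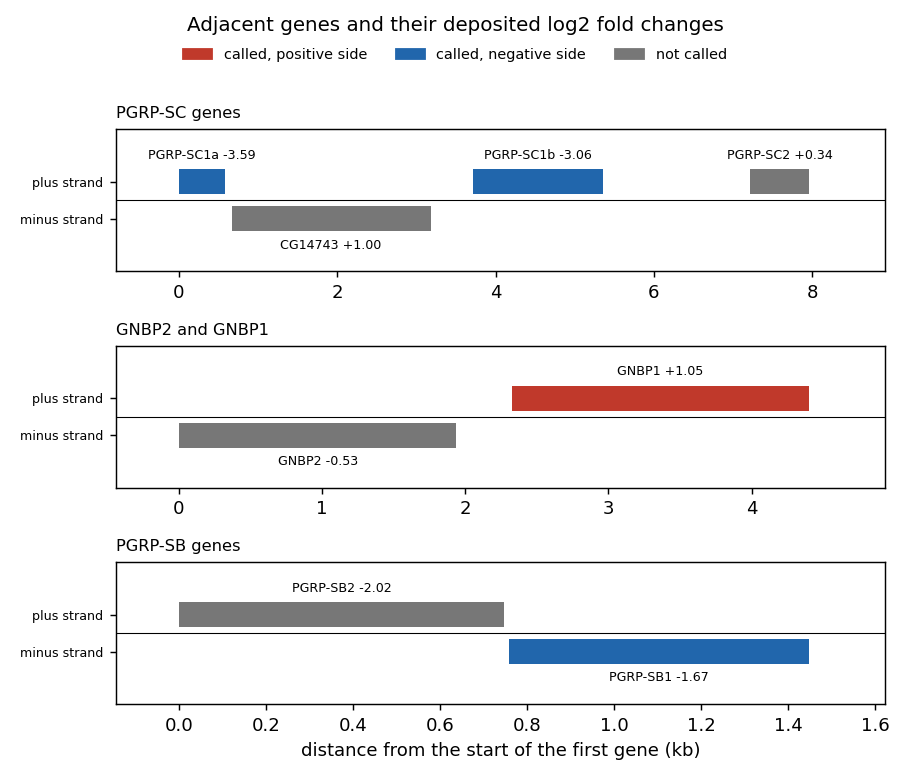
Positions of adjacent genes, as distance in kb from the start of the first gene of each group, on the plus or minus strand, with the deposited log2 fold change beside each name and the call as colour. PGRP-SC1a and PGRP-SC1b are coloured as called on the negative side and PGRP-SC2 as not called, and GNBP1 is called on the positive side beside GNBP2, which is not called.

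The remaining genes stand apart from other members. GNBP3 (FBgn0040321, 3L, 8955021 to 8956551) lies between orb2, called on the positive side at 0.52 (SE 0.11), and mRpL12, called on the negative side at -1.07 (SE 0.12). PGRP-SA (FBgn0030310) spans 11561643 to 11562779 on X and GNBP-like3 (FBgn0034511) 20526311 to 20526825 on 2R. PGRP-SD (FBgn0035806, 3L, 7651180 to 7651900) lies inside an intron of CG32373 and shares 35 exon bases at its end with CG7492 on the opposite strand. CG7492 had a mean of 483 and was called on the positive side at 0.71 (SE 0.10), and since the sources used here do not say whether counting used strand, reads from the shared bases cannot be told apart. Of the 15 nearest neighbours outside the 10 genes that could be matched to the table, 3 had a positive call, 2 had a negative call, 7 were not called and 3 had no adjusted p-value.

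Of the 7 other PGRP genes, PGRP-LA at 0.48 (SE 0.13, adjusted p = 0.000841) and PGRP-LB had a positive call and 0 a negative call. With shares of 27.0% and 22.0% over all genes, these counts are near the background. PGRP-LC, the membrane receptor of the Imd pathway, had a mean of 805 and a value of -0.15 (SE 0.16), and PGRP-LE, the intracellular receptor, stood at -0.16 (SE 0.10). PGRP-LC and PGRP-LE were named after their values were seen. The median of the 7 was -0.15.

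The 9 listed genes of the extracellular Toll cascade, which include serpin inhibitors as well as proteases and the ligand, all had positive values, as GNBP1 did. Of these 9 genes, 4 had a positive call, 0 a negative call and 5 were not called, beside 27.0% positive and 22.0% negative over all genes. Their median log2 fold change was 0.23, against 0.07 over all genes. All 9 values stayed above 0 when taken relative to genes of like transcript length. grass, the protease next to ModSP in the cascade, had a value of 1.57 (SE 0.19), spz, the ligand of Toll, 0.88 (SE 0.20) and modSP, the first protease, 0.36 (SE 0.09) in the authors' deposited table. SPE, the Spätzle-processing enzyme, also named after its value was seen, stood at 0.16 (SE 0.45) and was not called. Among the 8 genes from Toll to the NF-kB factors, 3 had a positive call and 1 a negative call (median 0.25), beside the same shares. Relative to genes of like transcript length 1 had each, beside 26.9% and 18.1% over all genes. The adaptor gene Myd88 at 0.50 (SE 0.12) and the NF-kB gene Dif at 0.49 (SE 0.15) were opposite to the kinase gene pll at -0.29 (SE 0.09).

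Of 13 genes of the Imd pathway, 3 had a positive call and 4 a negative call, with a median of -0.09. These counts are near the 27.0% and 22.0% over all genes. The adaptor gene Tab2 stood at 0.60 (SE 0.08) and the death-domain adaptor gene Fadd at -0.95 (SE 0.12) in the authors' deposited table. pirk, whose product holds back PGRP-LC signalling, stood at -1.60 (SE 0.26). In these pathway genes, as in the 10 recognition genes, calls occurred on both sides, and no set test was run.

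**Figure D5:**
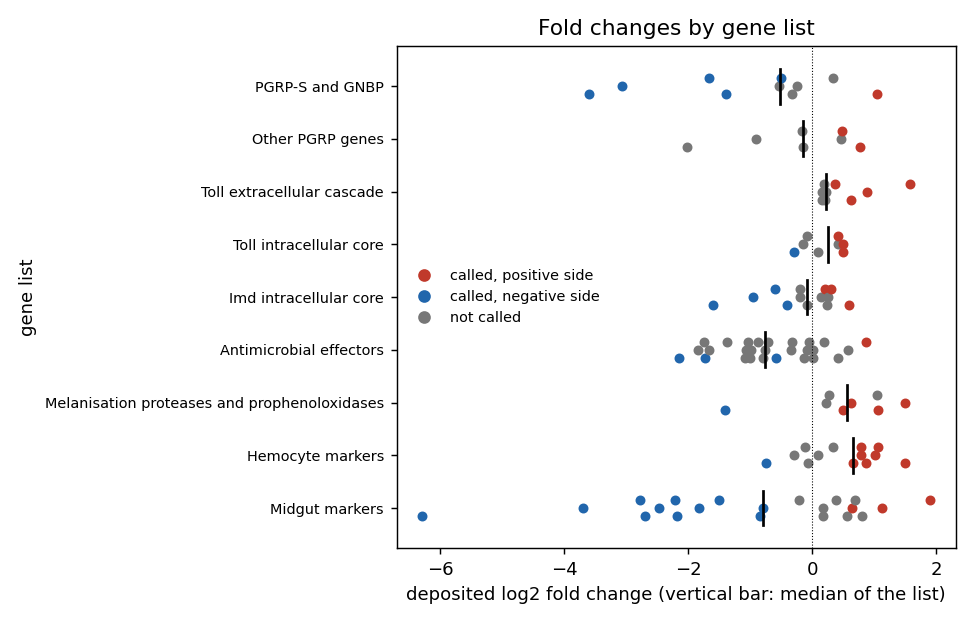
Deposited log2 fold changes of the genes in each list (points, coloured by call) with the list median (vertical bar). The 9 genes of the Toll extracellular cascade all lie above 0, while the 10 PGRP-S and GNBP genes spread from -3.59 to 1.05 and the midgut markers from -6.29 to 1.90.

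Fold changes in this comparison also differed with transcript length, which touches these short genes. Among well-expressed genes split into 5 bins of transcript length, log2 fold changes had a median of -0.32 in the shortest bin, which holds 6 of the 10 genes, -0.16 in the next, which holds 3, and 0.29 in the longest, which holds 0. Taken relative to the median of its own bin, PGRP-SC1a stood at -3.26, PGRP-SC1b at -2.90, PGRP-SB1 at -1.34 and GNBP1 at 1.11, and all 4 passed the same threshold. GNBP-like3 at -1.07 (adjusted p = 0.145) and GNBP3 at -0.36 (adjusted p = 0.0639) did not pass, so 3 of the 10 were then called on the negative side.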

How the data were processed

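Poly-A RNA of 24 fat body libraries in 4 groups was sequenced by the authors. The submitters' processing notes name build dm6 and, with no order or role, DESeq2, Bowtie2, cutadapt, Trim Galore, FastQC, Picard and SAMtools. They give no version, and the read counter, strand setting and model are not stated in the sources used here.

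The authors deposited 1 table. Per the file headers, it holds a mean of normalised read counts (a signal value over libraries), a log2 fold change and its SE, a test statistic (a score in the deposited table), and p-values before and after adjustment. Checked on the values, the statistic is the fold change over its SE, the p-value is two-sided normal, and the adjustment is the Benjamini-Hochberg one over 11399 genes. The p-value was absent for 40 genes and an adjusted one for a further 1795, which stay out of the calls. Depth per library is unknown, so precision was read from the SEs. The p-values set each fold change against its SE, which rests on the spread between libraries in the authors' fit. Each library is a pool of tissue from 25 flies, so this is not a spread between single flies.

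The design assumed that case: the deposited values were the result, called at an adjusted p under 0.05, with 95% normal intervals from the SE. Alternatives were computed with Python 3.11.15, pandas 2.3.3 and scipy 1.17.1 after the functions were tested on simulated data. Transcript lengths came from Ensembl release 115, matched for 99.6% of table symbols. The reference table's length was the gene span, so the longest transcript was used. List symbols were matched through current names and synonyms. The members and lists were chosen with earlier results of these data known. By rule, all members, the neighbours matched on each side, and up to 3 called genes of a pathway list or 2 of a marker list by smallest adjusted p were taken. A part of the neighbours and markers is printed. Other genes are marked where they appear, apart from PGRP-SB2, the highest or lowest of a list and overlapping genes.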

Additional observations from a re-analysis of the deposited data

How the results depend on the processing

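Alternatives, 10 in all, were run on each of the 10 genes, 100 outcomes in all, of which 83 kept direction and call. A part of the 83 was fixed in advance. A stricter threshold or adjustment could not add a call, and the threshold of 0.1 could not remove one. GNBP1 was called in all 10 alternatives. Of the genes called on the negative side, PGRP-SC1a and PGRP-SC1b kept the call in 9 each, PGRP-SB1 in 7, GNBP3 in 6 and GNBP-like3 in 4. Bonferroni adjustment of the deposited DESeq2 p-values left 0 of the 10 genes called on the negative side, against 6 with an unadjusted p under 0.05 and 8.76% of all genes, so PGRP-SC1a (-3.59, adjusted p = 0.676), PGRP-SC1b (-3.06), PGRP-SB1 (-1.67), GNBP3 (-0.51) and GNBP-like3 (-1.39) were lost. Benjamini-Yekutieli adjustment left 2 (16.0% of all genes), losing PGRP-SB1 (-1.67, adjusted p = 0.0832), GNBP3 (-0.51, adjusted p = 0.0529) and GNBP-like3 (-1.39, adjusted p = 0.474), and so did a test of a change beyond 0.5 on the log2 scale (adjusted p = 0.216, 1 and 0.589, with 4.81% of all genes called). GNBP-like3 at -1.39 was also lost at 0.01 (adjusted p = 0.0478) and with adjustment over all p-values (0.0553). GNBP2 at -0.53 was called at 0.1. Relative to genes of like length, 3 were called on the negative side (18.1% of all genes), GNBP3 (-0.36) and GNBP-like3 (-1.07) were lost and PGRP-SD, not called, turned from -0.25 to 0.07. The cause was not tested. Of the 70 genes of the pathway lists, 16 had a positive call and 9 a negative call, beside 27.0% and 22.0% of all genes. Bonferroni gave 3 and 3 (10.1% and 8.76% of all genes) and a change beyond 0.5 gave 2 and 3 (7.92% and 4.81%). A threshold of 0.1 gave 21 and 16 (30.5% and 25.1% of all genes). The alternative counting PGRP-SC1a and PGRP-SC1b once was chosen after seeing the data. No paired analysis was possible because the table has no value per library, and leaving out replicates and other count models were not run for the same reason.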

Other observations

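Genes listed for melanisation, an immune response that the same serine protease network starts, were called more on the positive side. The list holds serpin inhibitors as well as proteases and prophenoloxidases. Of 8, 4 had a positive call and 1 a negative call in the authors' deposited table, beside 27.0% and 22.0% of all genes. Their median log2 fold change was 0.56, against 0.07 over all genes. The prophenoloxidase genes PPO1 and PPO2, expressed in crystal cells, stood at 1.06 (SE 0.26, adjusted p = 0.000178) and 1.49 (SE 0.27, adjusted p = 3.09e-07), and PPO3, the prophenoloxidase of lamellocytes, at -1.40 (SE 0.22, adjusted p = 1.03e-09). The list shares Hayan and Sp7 with the Toll cascade list and PPO1 and PPO2 with the hemocyte markers.

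The marker counts below stand beside 27.0% positive and 22.0% negative calls over all genes, with a median of 0.07. Markers of the blood cells, another source of immune proteins, gave 7 positive calls and 1 negative call of 13, with a median of 0.66. srp, a GATA factor, stood at 0.79 (SE 0.11) and eater, a phagocytosis receptor, at 1.01 (SE 0.17) in the deposited table. Of 13 fat body markers, 3 had a positive call and 5 a negative call (median -0.04), with Yp1 at -3.05 (SE 0.36). Oenocyte markers gave 1 and 3 of 8 (median -0.34), with eloF at -2.60 (SE 0.25). Malpighian tubule markers gave 3 and 2 of 7 (median 0.70), with Irk2 at 1.29 (SE 0.17). Muscle markers gave 8 and 0 of 12 (median 0.89), with Mlc2 at 1.60 (SE 0.18), and neuron markers 5 and 0 of 8 (median 1.44), with cpx at 1.58 (SE 0.14). Ovary and germline markers gave 0 and 9 of 12 with an adjusted p-value (median -1.73), with AGO3 at -2.06 (SE 0.43). The markers named here are those with the smallest adjusted p of each list. In the blood cell, fat body, oenocyte and Malpighian tubule lists, other called markers had the opposite sign. The part of these tissues in the values of the recognition genes was not tested.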
